A study of Homo sapiens with 6 samples.

Results

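Heat shock proteins and their helpers were followed at the transcript level in A549, a long-established line of human lung adenocarcinoma cells, with and without polystyrene microplastics (PS-MP). The set holds 41 genes of the 62710 in the count table. They were named by gene symbol, with earlier results of these data known. They comprise 10 of the HSP70 family, 9 HSP90 genes and co-chaperones, 3 small heat shock proteins and 7 J-domain (DNAJ) co-chaperones. The others are 5 BAG co-chaperones, 5 mitochondrial chaperones and 2 heat shock transcription factors. All 41 were found in the table, each once. The 6 poly(A)-selected RNA-seq libraries formed 2 groups. The 3 control libraries came from A549 cells with no treatment, and for the 3 PS-MP libraries the labels give particles at 20 mg/mL for 48 h, a very high dose for cell culture, and nothing here allows its unit to be verified. All cells were grown in DMEM with fetal bovine serum. The line is a single tumour line grown without other cell types, and the labels are silent on whether replicate libraries stem from different cultures. The p-values below therefore describe the spread among these 6 libraries, which may be technical.

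Chaperones of the HSP70 and HSP90 families bind unfolded or immature proteins and release them in cycles of ATP use. J-domain proteins bring clients to HSP70 and start its ATP hydrolysis, BAG proteins and HSP110 proteins exchange its nucleotide, and small heat shock proteins hold damaged proteins without using ATP. When unfolded protein accumulates, the transcription factor HSF1 is released from chaperones, binds heat shock elements (adjacent inverted repeats of GAA) and induces many of these genes, while HSPA8 and HSP90AB1 are mainly constitutive and abundant in growing cells.

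In the PS-MP libraries all 3 small heat shock protein genes and the J-domain gene DNAJB4 were called higher, and no member was called lower. These 4 are 10.3% of the 39 tested members, beside 9.56% of all tested genes called in either direction. HSPB8 rose 2.22-fold, CRYAB 2.52-fold at a very low level, DNAJB4 1.44-fold and HSPB1 1.28-fold. Only HSPB8 kept its call under all 15 alternative settings. The calls of HSPB1, CRYAB and DNAJB4 were lost under 9, 6 and 4 of them. The classical heat-inducible genes HSPA1A, HSPA1B, DNAJB1, HSPH1, BAG3 and HSP90AA1 did not pass the test, and neither did HSF1 or HSF2. HSP90AB1 and several HSP90 co-chaperones had lower values in every PS-MP library than in any control, by 1.23-fold to 1.35-fold, and did not pass either. Such a separation was seen in 15.4% of all tested genes.

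The promoters of the genes that rose are shown first, because heat shock elements are the sequence through which HSF1 acts on this family. The windows are RefSeq promoters of build GRCh38.p14, 250 bases before to 50 bases after an annotated start, written 5′ to 3′ on the gene's strand. Capitals mark 2 or more adjacent heat shock units, that is, GAANNTTC or TTCNNGAA; both are their own reverse complement, so 1 search covers both strands, and matches may overlap. The DNAJB4 window is the one of its 2 annotated starts that holds a match, and for CRYAB the table has no entry.
HSPB1 (chr7:76302423-76302722, plus strand): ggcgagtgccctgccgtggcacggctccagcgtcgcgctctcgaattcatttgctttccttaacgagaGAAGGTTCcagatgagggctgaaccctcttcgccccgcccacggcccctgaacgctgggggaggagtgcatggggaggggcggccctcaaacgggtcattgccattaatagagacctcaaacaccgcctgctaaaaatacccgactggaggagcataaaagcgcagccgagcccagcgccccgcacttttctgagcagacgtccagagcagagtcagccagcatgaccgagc
HSPB8 (chr12:119178681-119178980, plus strand): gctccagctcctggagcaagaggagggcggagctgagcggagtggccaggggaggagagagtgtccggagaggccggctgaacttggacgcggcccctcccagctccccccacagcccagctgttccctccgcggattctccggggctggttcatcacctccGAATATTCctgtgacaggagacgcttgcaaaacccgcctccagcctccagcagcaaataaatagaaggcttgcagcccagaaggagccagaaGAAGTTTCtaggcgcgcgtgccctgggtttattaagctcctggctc
DNAJB4 (chr1:78004689-78004988, plus strand): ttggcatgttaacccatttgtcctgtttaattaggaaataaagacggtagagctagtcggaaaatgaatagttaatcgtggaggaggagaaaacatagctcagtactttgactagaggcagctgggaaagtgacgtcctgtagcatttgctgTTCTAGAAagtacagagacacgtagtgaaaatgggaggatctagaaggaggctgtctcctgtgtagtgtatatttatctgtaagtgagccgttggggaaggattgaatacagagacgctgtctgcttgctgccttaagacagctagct

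HSPB1, DNAJB4 and HSPB8 thus held pairs of units (1, 1 and 2 matches) and no run of 3. A run of 3 units (GAANNTTCNNGAA or TTCNNGAANNTTC, each the reverse complement of the other) was present in the windows of HSPA6, HSPA8, HSP90AA1, HSP90AB1, CHORDC1, DNAJA1, DNAJB6 and HSPD1. Those were 8 of the 35 members with a window (22.9%), while 0.608% of the 27305 genes in the table had one. Pairs of units were in 19 of the 35 (54.3%) and in 16.2% of all genes. None of the 7 tested members with a run of 3 was called in either direction, and at the 9.56% called over all tested genes a count of 0 among 7 does not set them apart. A match is a stretch of letters, not a shown binding site. The search took exact units only. Of the classical heat-inducible genes named above HSP90AA1 had a run of 3, and HSPA1A, HSPA1B, DNAJB1, HSPH1 and BAG3 did not. A missing run therefore does not show that a site is absent. The next 3 windows come from abundant members that did not pass the test and show what a run of 3 looks like. Capitals mark the same pairs of units, and overlapping pairs merge into longer runs. For HSP90AB1 and HSPD1, which have 3 and 2 annotated starts, the window with a run of 3 is shown.
HSPA8 (chr11:123062087-123062386, minus strand): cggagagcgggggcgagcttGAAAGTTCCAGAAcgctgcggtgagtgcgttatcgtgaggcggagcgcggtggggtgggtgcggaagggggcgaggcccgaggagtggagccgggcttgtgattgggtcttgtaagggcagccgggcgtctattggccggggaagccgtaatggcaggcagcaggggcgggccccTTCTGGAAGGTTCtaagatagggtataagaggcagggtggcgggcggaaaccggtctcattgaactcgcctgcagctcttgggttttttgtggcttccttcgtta
HSP90AB1 (chr6:44247693-44247992, plus strand): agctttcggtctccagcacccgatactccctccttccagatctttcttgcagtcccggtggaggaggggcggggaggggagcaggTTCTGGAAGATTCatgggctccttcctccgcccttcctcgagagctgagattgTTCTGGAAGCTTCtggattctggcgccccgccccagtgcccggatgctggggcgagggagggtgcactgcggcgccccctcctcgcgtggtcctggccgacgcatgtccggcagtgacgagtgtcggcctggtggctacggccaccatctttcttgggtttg
HSPD1 (chr2:197499791-197500090, minus strand): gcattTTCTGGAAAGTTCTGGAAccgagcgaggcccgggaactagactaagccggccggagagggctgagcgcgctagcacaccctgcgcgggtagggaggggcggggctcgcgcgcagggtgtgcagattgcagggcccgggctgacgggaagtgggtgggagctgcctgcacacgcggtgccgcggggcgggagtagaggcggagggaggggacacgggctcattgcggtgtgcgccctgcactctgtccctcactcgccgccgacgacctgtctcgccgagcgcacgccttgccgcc

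Total counts ran from 17013293 to 21316451 per library, and a gene with 3 counts had 0.137 to 0.177 CPM (counts scaled to library size, TMM-normalised here and below; this floor covers counting error only). Epithelial markers summed to between 7037 and 8397 CPM in the 6 libraries. The 6 leukocyte markers summed to 19.7 to 24.0 CPM in the controls and 23.8 to 36.7 CPM in the PS-MP libraries, nearly all of it CD14, with CD3E at 0. The 5 fibroblast markers summed to 4.90 to 6.58 CPM and 7.53 to 11.7 CPM, and among all these lists DCN (2.28 and 4.92 CPM) was the only gene called. The 4 endothelial markers together stayed at or below 1.06 CPM. In both groups the replicate 3 library was the one least like the others (correlation of log2 CPM 0.988 at most with the other controls and 0.987 at most with the other PS-MP libraries, against 0.996 and 0.994 between replicates 1 and 2). Control replicate 3 also had the highest MKI67, a proliferation marker, with 189.5 CPM against 116 and 123 in the other controls and 13.4 to 25.2 in the PS-MP libraries. With the quasi-likelihood test of edgeR and a Benjamini-Hochberg adjusted p under 0.05, taken over 15458 tested genes, 4.91% of genes were called higher and 4.65% lower.

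The 41 genes together took 0.943% and 0.973% of the counts in control replicates 1 and 2, 1.21% in control replicate 3, and 0.91% to 0.958% in the PS-MP libraries. Per kilobase of exon, the scale on which genes can be compared, the control level of HSP90AB1, the constitutive cytosolic HSP90, was the highest at 644 CPM per kb. HSPA8, the constitutive HSC70, followed with 389, HSPD1, the mitochondrial HSP60, with 213.5, HSP90AA1, the inducible HSP90, with 185, and HSPB1, the small heat shock protein HSP27, with 162 CPM per kb. HSP90AB1 and HSPA8 were the first and second in both groups (513 and 421 CPM per kb in the PS-MP libraries). In the PS-MP libraries HSPB1 (208 CPM per kb) stood above HSPD1 (181) and HSP90AA1 (152). This change of order is a comparison of means, and the order within each group was not tested.

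**Figure D1:**
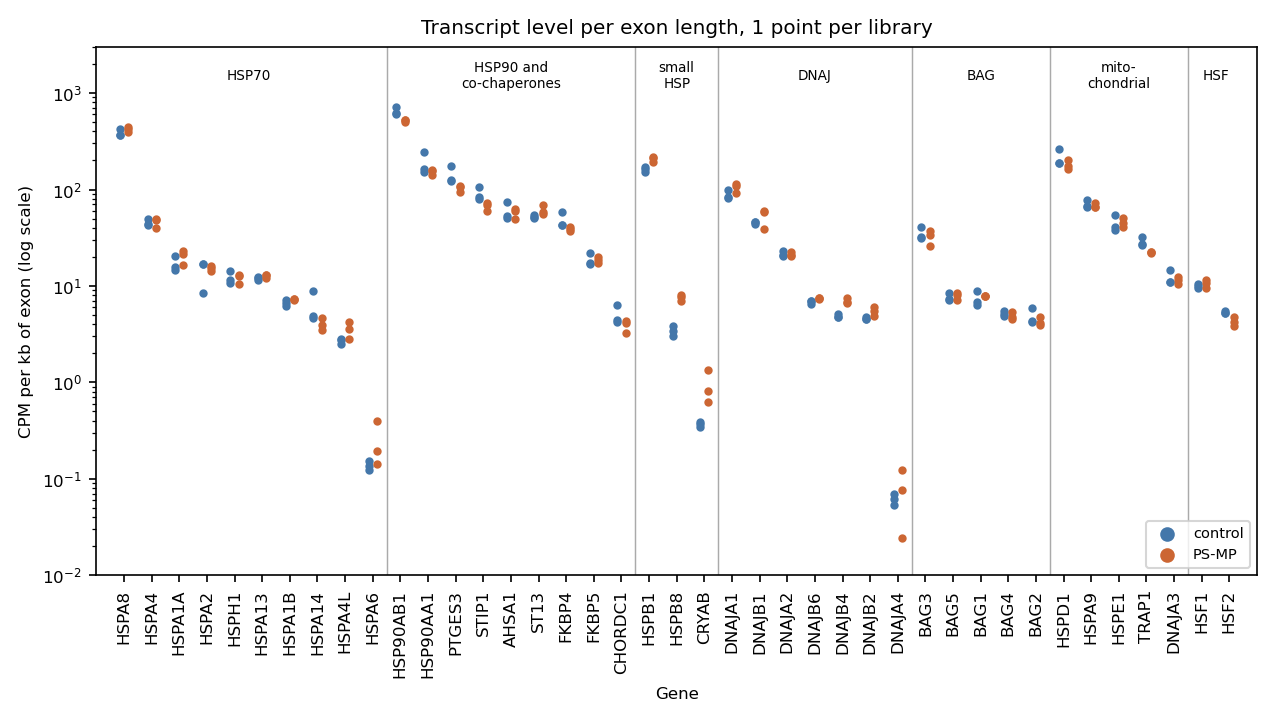
Transcript level of the 41 genes as CPM per kb of exon on a log axis, 1 point per library, blue for control and orange for PS-MP, grouped by family and ordered by control level. Levels span from HSP90AB1 (644 CPM per kb in controls) to HSPA6 and DNAJA4 (0.138 and 0.0618), and the points of the 2 groups separate visibly for HSPB8 and CRYAB.

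The lowest levels belonged to HSPA6, an HSP70 known to be made almost only under strong stress, and DNAJA4, a cytosolic J-domain protein. HSPA6 had 5, 7 and 8 counts in the controls and 8, 6 and 18 counts with PS-MP. DNAJA4 had 6, 9 and 10 counts in the controls and 14, 9 and 3 counts with PS-MP. Both fell below the filter on low counts and were not tested, so 39 members remained. In both genes the groups overlapped.

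Of the 39 tested members 4 were called higher (beside 4.91% of all tested genes) and 0 lower (beside 4.65%), which is 10.3% called in all, beside 9.56%. DESeq2 called 4 members higher and 3 lower. Over the whole table it called 864 genes higher and 795 lower. Those 795 are 2.41% of the 33003 genes with any count, a base not filtered for low counts. That share is therefore not comparable with those over 15458 genes, where edgeR called 719 lower. The limma-voom fit called 0 members lower, beside 4.5% of 15458. The median log2 fold change of the members was 0.03, and of all tested genes 0.002. At an unadjusted p under 0.05, 5 of the 39 were higher (the 4 called and HSPA4L), beside 12.6% of all tested genes. At the same limit 7 were lower (HSP90AB1, STIP1, PTGES3, FKBP4, TRAP1, HSF2 and HSPA14), beside 11.4%. In 8 members every PS-MP library lay above every control and in 7 every one lay below, which is 20.5% and 17.9% of the 39, beside 16.6% and 15.4% of all tested genes (32% in either direction). The share called was near that of the whole table, and the calls lay in the small heat shock protein and J-domain families.

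**Figure D2:**
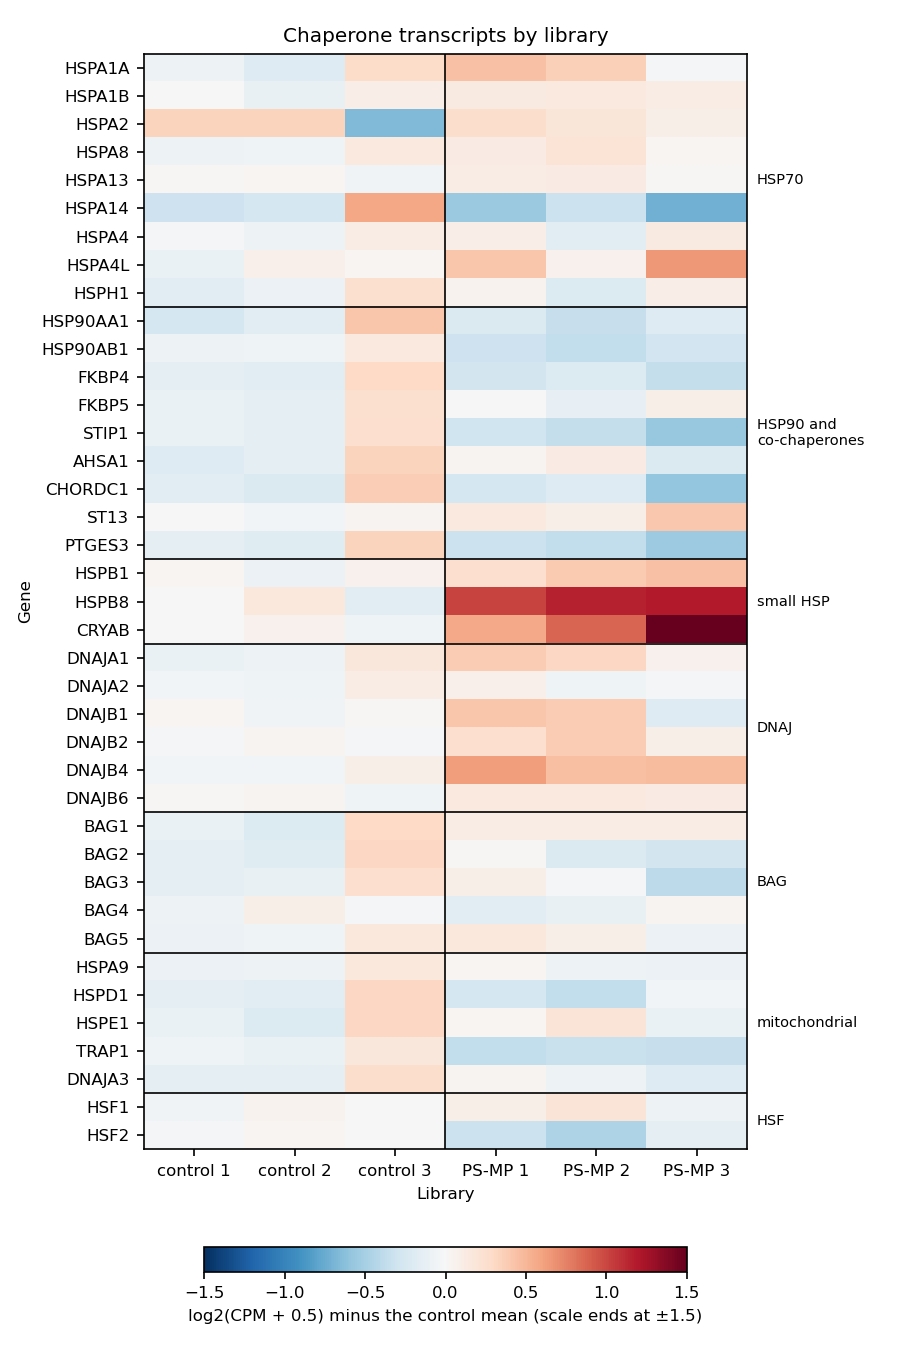
Level of the 39 tested genes in each library, as log2(CPM + 0.5) minus the mean of the 3 controls, red above and blue below, with families separated by lines. The small heat shock proteins are red in all 3 PS-MP libraries, and most HSP90, BAG and mitochondrial rows are red in control replicate 3.

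The small heat shock proteins HSPB1, HSPB8 and CRYAB form large oligomers that keep misfolded proteins soluble. All 3 tested members rose. HSPB8, a partner of BAG3 in the selective autophagy of aggregates, had 9.78, 10.9 and 8.57 CPM in the controls and 20.1, 22.2 and 22.8 CPM in the PS-MP libraries. Every PS-MP library lay far above every control. Its log2 fold change was 1.15 ± 0.14 SE (adjusted p = 0.000456, edgeR), and it passed under each of the 15 alternative settings tried (log2 fold change 1.02 to 1.24, adjusted p from 1.24e-10 to 0.0066). A processed pseudogene (ENSG00000213144) on the same strand within the span of HSPB8 held counts amounting to 2.72% of those of HSPB8.

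CRYAB, alpha-B crystallin, a chaperone of muscle and lens, was barely expressed. It received 19, 26 and 23 counts in the controls and 33, 44 and 77 counts with PS-MP, or 1.12, 1.19 and 1.05 against 1.91, 2.47 and 4.08 CPM. The groups did not overlap, and PS-MP replicate 3 was the highest by far. The log2 fold change was 1.33 ± 0.32 SE (adjusted p = 0.025, edgeR). It was 0.96 without PS-MP replicate 3 (adjusted p = 0.0559, edgeR), and the call was also lost without PS-MP replicate 2 or any 1 control (0.0608 to 0.0782). With replicate number as a block it was lost as well (0.0674). The fibroblast marker DCN also peaked in PS-MP replicate 3 (6.95 CPM, against 4.17 and 3.64 CPM in the other PS-MP libraries and 2.20 to 2.41 CPM in the controls), and its part in the CRYAB result was not tested. HSPB2, HSPB2-C11orf52 and C11orf52, which overlap CRYAB on the other strand, had 0 counts in every library.

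HSPB1, which encodes HSP27, an abundant chaperone that also binds actin filaments, had 269, 247.5 and 276 CPM in the controls and 313, 348 and 357.5 CPM in the PS-MP libraries. All 3 PS-MP values lay above the highest control. Its log2 fold change of 0.36 ± 0.10 SE was the smallest of the 4 called (adjusted p = 0.046, edgeR). Leaving out any 1 library took it past the threshold (adjusted p from 0.054 to 0.202). So did RLE scaling (0.0522), scaling by total counts alone (0.0998) and replicate number as a block (0.145). The log2 fold change stayed between 0.30 and 0.42. Of 7 further genes of the small heat shock protein nomenclature only HSPB11 was expressed enough to be tested, and its log2 fold change was −0.001 (adjusted p = 0.998, edgeR). In the deposited annotation (GRCh38) HSPB1 (ENSG00000106211) lies on chromosome 7 at 76302673 to 76304295, HSPB8 (ENSG00000152137) on chromosome 12 at 119171555 to 119224855, and CRYAB (ENSG00000109846) on chromosome 11 at 111908564 to 111923722.

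**Figure D3:**
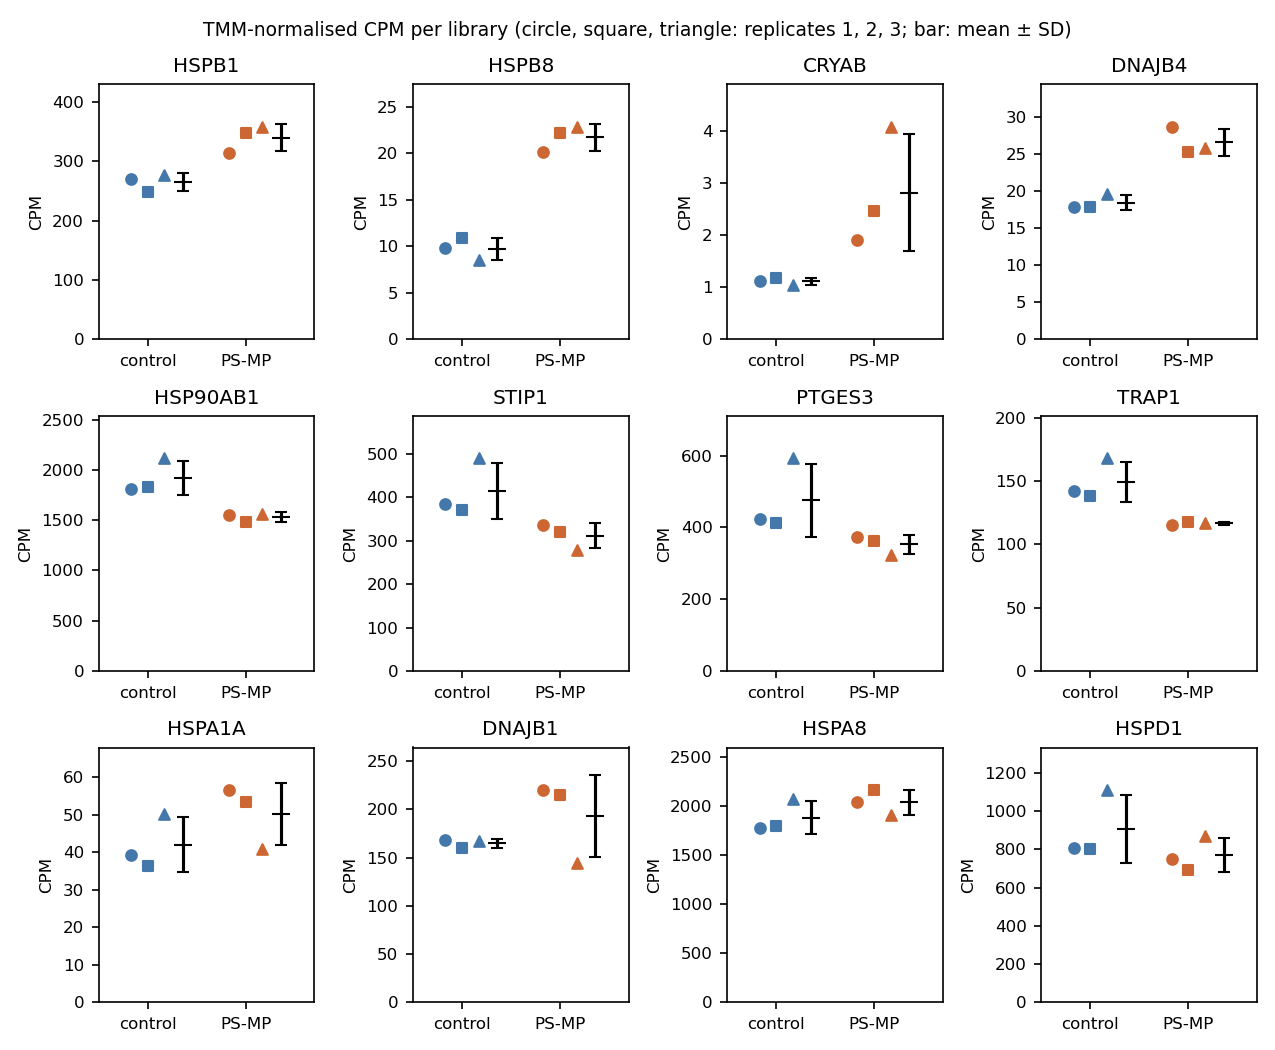
TMM-normalised CPM of 12 genes in each library, each panel with its own linear axis from 0; symbols give the replicate, and the bar the mean ± SD of 3. The top row shows the 4 genes called higher, the middle row 4 genes lower in every PS-MP library that did not pass, and the bottom row 4 heat-inducible or abundant genes whose groups overlap.

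Among the J-domain proteins, 1 of 6 tested members was called. DNAJB4 (HLJ1), a cytosolic HSP40 studied in lung adenocarcinoma as a suppressor of invasion, had 17.8, 17.8 and 19.6 CPM in the controls and 28.7, 25.3 and 25.8 CPM in the PS-MP libraries. The groups were well apart. The log2 fold change was 0.53 ± 0.12 SE (adjusted p = 0.016, edgeR). The call was lost without control replicate 1 (adjusted p = 0.0848), control replicate 2 (0.0812) or PS-MP replicate 1 (0.0928), and the fold change changed little (log2 0.46 to 0.59 over all alternatives). DNAJB4 (ENSG00000162616) lies on chromosome 1 at 77979175 to 78017964.

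DNAJA1, the farnesylated HSP40 with the highest level of the family, had 224, 227 and 269 CPM in the controls and 312, 297 and 250 CPM in the PS-MP libraries. PS-MP replicate 3 fell among the controls. DNAJB1, the main heat-inducible HSP40, had a like pattern with 168, 159.5 and 167.5 CPM in the controls and 220, 215 and 144.5 CPM in the PS-MP libraries, where replicate 3 was below every control. Their log2 fold changes were 0.25 ± 0.12 SE and 0.23 ± 0.15 SE (adjusted p = 0.222 and 0.383, edgeR). Without PS-MP replicate 3, DNAJB1 was called higher (log2 fold change 0.40, adjusted p = 0.0188), while without PS-MP replicate 1 or 2 its log2 fold change was 0.12 or 0.14 (adjusted p = 0.739 and 0.688). DNAJB1 overlaps TECR on the other strand, whose counts amounted to 27.2% of its own.

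The other J-domain members had log2 fold changes of 0.25 (DNAJB2, a co-chaperone best known from neurons), 0.14 (DNAJB6, a suppressor of aggregation) and −0.004 (DNAJA2). DNAJB2 and DNAJB6 were higher in all PS-MP libraries than in any control without passing (adjusted p = 0.213 and 0.399, edgeR). The sign of DNAJA2 turned under 5 of 15 alternatives, in each case without a call. Of 28 tested J-domain genes outside the set, 1 was higher and 1 lower (7.14% called, beside 9.56% of all tested genes in either direction; median log2 fold change 0.01). DNAJC4 was 1.45-fold higher (14.8 ± 2.36 against 21.5 ± 2.71 CPM, SD, n = 3, adjusted p = 0.0491, edgeR). DNAJC9, a histone chaperone that recruits HSP70, fell from 14.3 ± 3.87 to 8.17 ± 1.80 CPM, a 1.76-fold difference (SD, n = 3, adjusted p = 0.0418, edgeR). Neither call was firm: that of DNAJC4 was lost under 10 of 15 alternatives and that of DNAJC9 under 6, among them those without control replicate 3 (adjusted p = 0.127 for DNAJC4 and 0.122 for DNAJC9).

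In the HSP70 family no member of 9 tested passed. HSPA8, the most abundant, had 1780, 1796 and 2079 CPM in the controls and 2044, 2167 and 1914 CPM in the PS-MP libraries. Control replicate 3 lay within the PS-MP range. The log2 fold change was 0.12 ± 0.11 SE (adjusted p = 0.569, edgeR).

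HSPA1A, the stress-inducible HSP70, had 39.4, 36.4 and 50.3 CPM in the controls and 56.6, 53.4 and 40.95 CPM in the PS-MP libraries. Replicates 1 and 2 of the PS-MP group were above every control, and replicate 3 was below control replicate 3. The difference did not pass (log2 fold change 0.26 ± 0.15 SE, adjusted p = 0.341, edgeR). HSPA1B, its neighbour on chromosome 6, had 16.9, 15.5 and 18.1 CPM against 18.5, 18.6 and 18.3 CPM (log2 fold change 0.13, adjusted p = 0.535, edgeR). These are near-identical copies: 67.1% of all windows of 150 bases in the longest HSPA1A transcript occurred letter for letter in HSPA1B (GENCODE release 29), so the split of reads between them is uncertain, and both stay below the level of HSPA8 on the per-length scale (16.9 and 6.68 against 389 CPM per kb in the controls).

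The HSP110 members, which exchange nucleotide on HSP70, differed among themselves. HSPA4L had 28.9, 32.7 and 31.7 CPM in the controls and 41.7, 32.6 and 49.0 CPM in the PS-MP libraries. PS-MP replicate 2 was level with the controls and the other 2 were higher (log2 fold change 0.40 ± 0.15 SE, adjusted p = 0.118, edgeR); without that library HSPA4L was called (0.54, adjusted p = 0.0422), and without PS-MP replicate 3 it was at 0.26 (adjusted p = 0.234). HSPA4 and HSPH1, the heat-inducible HSP105, had log2 fold changes of 0.03 and −0.02 with signs that turned under 5 and 3 of 15 alternatives, none with a call.

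HSPA14, an HSP70 that works at the ribosome, had the most negative log2 fold change of the 39 (−0.61 ± 0.24 SE, adjusted p = 0.145, edgeR). Its values were 12.4, 12.8 and 23.4 CPM in the controls and 10.4, 12.3 and 9.23 CPM in the PS-MP libraries. Control replicate 3 was far above the other controls, and the lowest control and the highest PS-MP library were nearly level. Without control replicate 3 the log2 fold change was −0.25 (adjusted p = 0.386). HSPA14 also overlaps MSANTD7 on the same strand, whose counts were 154% of its own, so its counts are uncertain.

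HSPA2, an HSP70 best known from the testis, showed the opposite in the same library: 98.0, 97.5 and 48.6 CPM in the controls against 92.9, 88.2 and 82.3 CPM. Its log2 fold change of 0.11 turned to −0.16 without control replicate 3, with no call either way. HSPA13, a microsome-associated HSP70 relative that lacks a substrate-binding domain, had a log2 fold change of 0.08 (adjusted p = 0.638, edgeR).

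The HSP90 family and its co-chaperones had mostly negative fold changes, with no call. Of 9 tested members 8 had negative log2 fold changes (median −0.29), beside 7689 of all 15458 tested genes (median 0.002). Without control replicate 3 it was 6 of 9 with a median of −0.13. In 4 members every PS-MP library lay below every control (15.4% of all tested genes did so). HSP90AB1 had 1813, 1834 and 2113 CPM in the controls and 1548, 1477 and 1564 CPM in the PS-MP libraries. Its groups were clearly apart although the fold was small (log2 fold change −0.33 ± 0.11 SE, adjusted p = 0.0838, edgeR). HSP90AA1, the inducible form, had 794.5, 850.5 and 1273 CPM against 820.5, 747 and 830 CPM. Its groups overlapped, and its log2 fold change of −0.28 ± 0.16 SE (adjusted p = 0.323, edgeR) became −0.04 without control replicate 3.

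Among the co-chaperones, STIP1 (HOP), which links HSP70 to HSP90, had 385, 372 and 489.5 CPM in the controls and 335, 321 and 279 CPM in the PS-MP libraries. PTGES3 (p23), which stabilises the closed HSP90 dimer, had 422, 412 and 592 CPM in the controls and 374, 361 and 322 CPM in the PS-MP libraries. In both genes the groups did not overlap, while control replicate 3 was far above the other controls. The log2 fold changes were −0.41 ± 0.13 SE for STIP1 and −0.43 ± 0.14 SE for PTGES3 (adjusted p = 0.0695 and 0.0914, edgeR), and −0.28 and −0.24 without control replicate 3. By DESeq2, STIP1 and HSP90AB1 passed (adjusted p = 0.0391 and 0.039).

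FKBP4 and FKBP5 are immunophilins that serve HSP90 in steroid receptor complexes, with opposing effects on receptor activity. FKBP4 was lower in every PS-MP library (224, 219 and 301 CPM in the controls against 203, 212 and 192 CPM; log2 fold change −0.29 ± 0.13 SE, adjusted p = 0.197, edgeR), and without control replicate 3 its log2 fold change was −0.13 (adjusted p = 0.425). FKBP5 had a log2 fold change of −0.02 (adjusted p = 0.936, edgeR). Of 7 tested glucocorticoid-responsive genes, a list set beside FKBP5, none was called (9.56% of all tested genes were). AHSA1, the activator of HSP90 ATPase, and CHORDC1, an HSP90-binding protein, had −0.03 and −0.36 (adjusted p = 0.927 and 0.216, edgeR), and without control replicate 3 AHSA1 turned to 0.16 and CHORDC1 was at −0.15. ST13 (HIP), which holds HSP70 in its ADP state, was the exception with higher values in every PS-MP library, a log2 fold change of 0.22 (adjusted p = 0.238, edgeR) and 215, 210 and 223 CPM against 240, 230 and 286 CPM.

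Control replicate 3 was the highest of all 6 libraries for 8 of the 9 HSP90-family members and for all 5 mitochondrial members. Over the 39 tested members it was the highest for 19 (48.7%), and over all tested genes for 25.2%. It lay above both other controls in 28 of the 39 (71.8%, beside 41.9% of all tested genes), with a median ratio of 1.36 to the mean of the other controls in the HSP90 family and 1.32 in the mitochondrial family. MKI67 was highest in that library and mitochondrially encoded transcripts were lowest, at 12.4% of counts against 15.6% to 17.8% in the other 5. Their part in the HSP90 result was not tested. Summed over the family, HSP90 and co-chaperone transcripts came to 4236, 4277 and 5509 CPM in the controls and 3938, 3762 and 3865 CPM in the PS-MP libraries. All 3 PS-MP sums were below the lowest control sum.

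Replicates 1 and 2 alone gave 11 members called higher and 4 lower. The 11 were HSPB1, HSPB8, CRYAB, DNAJB4, DNAJA1, DNAJB1, DNAJB2, HSPA1A, HSPE1, AHSA1 and BAG1, and the 4 were HSP90AB1, STIP1, TRAP1 and HSF2. This is to be read against the whole table, where that setting called 13.5% of genes higher and 13.1% lower. HSPA1A then had a log2 fold change of 0.54 (adjusted p = 0.000633, edgeR) and DNAJB1 of 0.41 (adjusted p = 0.00079, edgeR). Without control replicate 3 or PS-MP replicate 3 alone, HSPA1A had 0.41 or 0.39 and was not called (adjusted p = 0.141 and 0.112, edgeR). In DNAJB1 the groups overlapped only through PS-MP replicate 3, and in HSPA1A only through the order of control replicate 3 and PS-MP replicate 3. The setting thus left out the libraries that made these groups overlap. It was chosen with earlier results of these data known, so its p-values are no independent support for either gene.

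**Figure D4:**
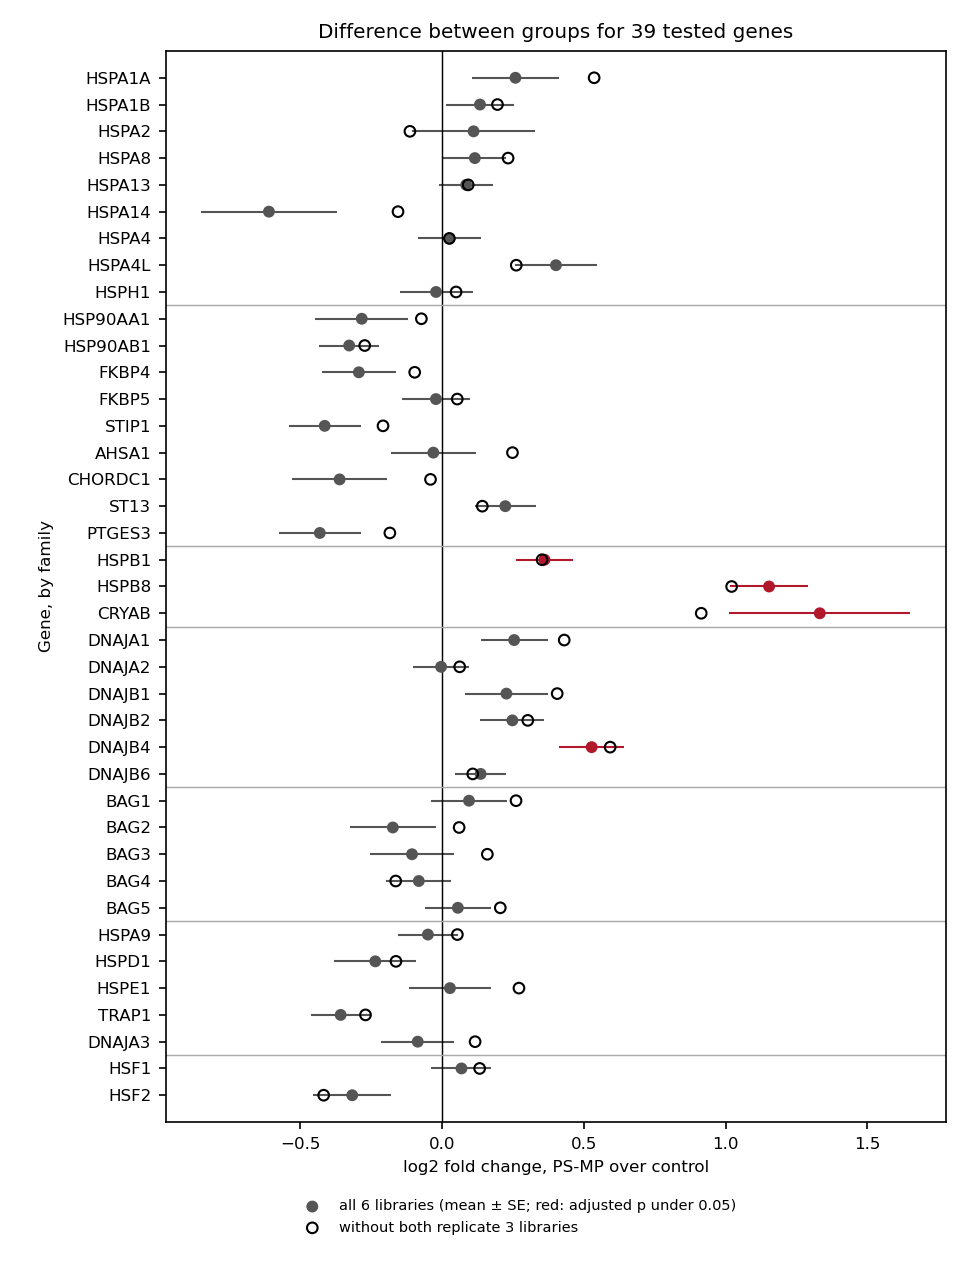
log2 fold change of PS-MP over control for the 39 tested genes, filled points with SE bars for all 6 libraries (red where the adjusted p was under 0.05) and open circles without both replicate 3 libraries. HSPB8, CRYAB, DNAJB4 and HSPB1 lie to the right in both, while most HSP90 and co-chaperone points move towards 0 or beyond it once replicate 3 is left out.

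The mitochondrial chaperones fold proteins imported into the matrix, and none of the 5 tested members passed. Their median log2 fold change was −0.09, and 0.03 without control replicate 3. HSPD1 (HSP60) had 807, 802 and 1110 CPM in the controls and 747, 693 and 868 CPM in the PS-MP libraries. The groups overlapped (log2 fold change −0.24 ± 0.15 SE, adjusted p = 0.356, edgeR), and without control replicate 3 the log2 fold change was −0.07 (adjusted p = 0.786). HSPE1 (HSP10), the lid of the HSP60 barrel, lies within the annotated span of HSPD1 on the other strand and had 80.9, 75.0 and 108 CPM against 88.9, 99.4 and 80.8 CPM. Its log2 fold change was 0.03, with a sign that turned under 4 of 15 alternatives, none with a call. The library kit keeps strand, but the strand setting of the counting is not given in the sources used here, so reads of overlapping genes on opposite strands, such as this pair, may not have been told apart.

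TRAP1, the mitochondrial HSP90, was nearest to a call among the members with lower values. It had 142, 138 and 168 CPM in the controls and 115, 117.5 and 117 CPM in the PS-MP libraries. The PS-MP libraries lay close together and below every control (log2 fold change −0.36 ± 0.10 SE, adjusted p = 0.0549, edgeR). It passed by DESeq2 (adjusted p = 0.038), without a filter (0.0444) and when only total counts scaled the libraries (0.0363), and its adjusted p was 0.101 without control replicate 3. HSPA9 (mortalin), the matrix HSP70, and DNAJA3 (Tid1), its J-domain partner, had log2 fold changes of −0.05 and −0.09 (adjusted p = 0.816 and 0.735, edgeR), which turned to 0.03 and 0.06 without control replicate 3.

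The BAG proteins link HSP70 to other machines, and none of the 5 tested members passed. BAG3, the inducible partner of HSPB8, had 85.5, 87.9 and 113 CPM in the controls and 101, 93.1 and 71.9 CPM in the PS-MP libraries. The groups overlapped (log2 fold change −0.11 ± 0.15 SE, adjusted p = 0.713, edgeR), while HSPB8 rose in the same libraries. BAG1, BAG2, BAG4 and BAG5 lay between −0.17 (BAG2) and 0.09 (BAG1). The signs of BAG1, BAG2, BAG3 and BAG5 turned under 1 to 3 alternatives, and BAG1 was called only without both replicate 3 libraries (0.26, adjusted p = 0.0259). LSM1 overlaps BAG4 and KLC1 overlaps BAG5 on the other strand, with counts of 68.3% and 52.7% of theirs, and DGAT1 overlaps HSF1 in the same way with 38.8%.

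Of the transcription factors, HSF1, the master regulator of the heat shock response, had 51.0, 55.4 and 53.1 CPM in the controls and 56.4, 60.6 and 50.3 CPM in the PS-MP libraries. The groups overlapped (log2 fold change 0.07 ± 0.11 SE, adjusted p = 0.746, edgeR), and the transcript level does not show the activity of the protein. HSF2, which forms trimers with HSF1, had 14.2, 14.7 and 14.3 CPM against 11.4, 10.3 and 12.9 CPM. Every PS-MP library was lower, and the gene did not pass (log2 fold change −0.32 ± 0.14 SE, adjusted p = 0.185, edgeR).

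Other chaperone groups were set beside the members. None of the 14 tested genes of the cytosolic chaperonin CCT and prefoldin was called (9.56% of all tested genes were). Of the 14, 12 had negative log2 fold changes (7689 of all 15458 tested genes did), with a median of −0.18. Without control replicate 3 it was 8 of 14 and −0.08, and without both replicate 3 libraries 5 of 14 and 0.03. None of 22 further HSP70 and HSP90 co-chaperones was called either (median −0.02). Of 13 tested further heat shock factors and targets, 1 was called higher (7.69%, beside 4.91% of all tested genes). SERPINH1 (HSP47), the collagen chaperone of the endoplasmic reticulum, was 1.53-fold higher (68.5 ± 5.40 against 105 ± 5.54 CPM, SD, n = 3, adjusted p = 0.00346, edgeR). It kept its call under all 15 alternatives (adjusted p up to 0.0324). Of 16 endoplasmic reticulum chaperones 2 were called higher (12.5%, beside 4.91% of all tested genes). Their median was 0.20 with 14 of 16 positive, beside 0.002 and 7769 of 15458 for all tested genes. DNAJB9 (ERdj4), a J-domain partner of BiP, was 1.67-fold higher (30.7 ± 1.69 against 51.4 ± 1.10 CPM, SD, n = 3, adjusted p = 0.000952, edgeR) and passed under all 15 alternatives. SIL1, the nucleotide exchange factor of BiP, was 1.43-fold higher (33.4 ± 2.18 against 47.7 ± 1.75 CPM, SD, n = 3, adjusted p = 0.00973, edgeR). Its call was lost without control replicate 2 (adjusted p = 0.0594) and with replicate number as a block (0.0599). In bulk libraries such as these, more or fewer cells with a transcript and more or less of it per cell cannot be told apart. This holds for these genes as for the members.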

How the data were processed

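Gene expression was measured in 6 A549 libraries. The authors deposited 1 table of raw counts, whole numbers for each Ensembl gene and library, under a name that carries featureCounts. Build GRCh38 and the tools DESeq2, RSEM, StringTie, HISAT2 and fastp are listed, without roles, per the submitters' processing notes. The kit was stranded per the labels' protocols. Strand setting, multi-mapping and annotation release are not given in the sources used here, which bears on overlapping genes and near-identical copies.

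Testing used edgeR 4.0.16 (R 4.3.3) with filterByExpr by group (15458 genes), TMM scaling and a robust quasi-likelihood fit of both groups. Its p-values are two-sided and were adjusted by Benjamini-Hochberg over all tested genes. SE is the absolute log2 fold change divided by the square root of F. CPM are TMM-normalised, and exon lengths are unions of exons in GENCODE release 29. The procedure was tested on simulated counts. Alternatives used limma-voom (limma 3.58.1), DESeq2 1.42.0, other scalings and filters, the replicate block, and left-out libraries. The members, gene lists, and the leaving out of both replicate 3 libraries were chosen with earlier results of these data known. All members are named; those called and the most abundant of each family are given by library, as are others singled out after their values were seen. Called genes from the companion lists are named by smallest adjusted p.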

Additional observations from a re-analysis of the deposited data

How the results depend on the processing

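Leaving out 1 library in turn gave 771 to 1696 called genes (1478 with all 6), 1 to 3 members called higher and 0 called lower. Of all tested genes, 2.22% to 5.62% were then called higher and 2.59% to 5.15% lower. Without both replicate 3 libraries, 4129 genes were called, with 11 members higher and 4 lower, beside 13.5% and 13.1% of all tested genes. Fewer libraries are fitted in these settings; the cause was not tested further. A further limit of 1 on the size of the log2 fold change left 558 genes in either direction. It left 2 members higher (CRYAB and HSPB8), beside 1.38% of all tested genes. DESeq2 called 3 members lower (HSP90AB1, TRAP1, STIP1), beside 2.41% of 33003 genes. Total counts as the only scaling called the same 3, beside 5.57% of 15458 genes. Without a filter 4 were called lower (PTGES3, TRAP1, STIP1, HSPA14), beside 2.92% of 33003 genes. The base of 33003 genes is not filtered for low counts, so its shares are not comparable with those over 15458. The cause of these differences was not tested. Total counts moved the median of all genes to −0.0637 on the log2 scale and called 535 genes higher and 861 lower, against 759 and 719.

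The replicate numbers gave no sign of pairing the libraries. Same-numbered deviations from the group means correlated at −0.084, −0.0909 and −0.164, and other-numbered ones at −0.0769 to 0.122. These correlations cannot show whether same-numbered libraries shared a culture or a batch. With the replicate block 750 genes were called in either direction. There 1 member, HSPB8, was higher, beside 2.15% of all tested genes.

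Signs turned, in no case for a member called with all 6 libraries. With total counts alone the log2 fold changes became HSPA4 −0.039, BAG5 −0.0121 and HSPE1 −0.042, and with upper-quartile scaling DNAJA2 0.00836. Without both replicate 3 libraries they became HSPA2 −0.114, HSPH1 0.0491, FKBP5 0.0532, AHSA1 0.248, DNAJA2 0.0618, BAG2 0.0599, BAG3 0.159, HSPA9 0.0536 and DNAJA3 0.116. Leaving out 1 library gave these ranges of the log2 fold change: HSPA2 −0.157 to 0.262, HSPA4 −0.0305 to 0.111, HSPH1 −0.108 to 0.107, FKBP5 −0.0947 to 0.106, AHSA1 −0.138 to 0.156, DNAJA2 −0.0432 to 0.0519, BAG1 −0.00605 to 0.261, BAG2 −0.268 to 0.00135, BAG3 −0.209 to 0.0301, HSPA9 −0.105 to 0.0343, HSPE1 −0.0764 to 0.201, DNAJA3 −0.163 to 0.0599 and HSF1 −0.000533 to 0.139. Depth limited HSPA6, DNAJA4 and CRYAB, all under 100 counts per library.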
